A study of Mus musculus with 14 samples.

Results

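The regions described here are stretches of the mouse genome in which the small cell lung cancer (SCLC) line 1399M4 had an ATAC-seq peak in both of its libraries and no library of 6 other SCLC lines had one. The narrowPeak intervals of all 14 libraries were merged wherever they overlapped by at least 1 bp on chromosomes 1 to 19 and X. A region was counted as open in a line when both libraries of the line had a peak in it, and as closed when neither had. Of 177577 merged regions, 7100 (4.0%) were open in 1399M4 and closed in the 6 others; these 7100 are called the 1399M4-only regions. They made up 11.8% of the 60310 regions open in 1399M4. Because the peak calls chose the regions, their presence in 1399M4 and absence elsewhere is a description and was not tested. Closed here means that no peak was called, and a weaker signal below the calling threshold could not be seen in the files.

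All 7 lines came from mouse models labelled RPR2, a background in which Rb1, Trp53 and Rbl2 are deleted. The line 1399M4 (RPR2;Nfibf/f, liver metastasis) carries in addition the floxed Nfib allele. It was compared with 1398M1 (RPR2;Nfibf/f, liver metastasis), 1398P2 and 1399P1 (both RPR2;Nfibf/f, lung tumor), 1373M1 (RPR2, liver metastasis), and 12N1G and N2N1G (both RPR2, lymph node metastasis), each with 2 libraries. The labels do not say which cells received Cre, whether the 2 libraries of a line were separate cultures, or whether lines with the same number in their names came from one animal. Only 1 line stands behind every statement about 1399M4, so line, animal, site and genotype cannot be told apart.

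ATAC-seq marks DNA that the Tn5 transposase can reach, which is mostly promoters and the enhancers that transcription factors hold free of nucleosomes. Promoters of active genes tend to be accessible in many cell types, whereas enhancers differ more between cell states. SCLC is a neuroendocrine cancer in which lineage factors such as NEUROD1 maintain a neuron-like program, and variant states with tuft-like, YAP1-positive or mesenchymal features are known. NFIB is a transcription factor whose gain has been linked to widespread chromatin opening in metastatic SCLC.

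The 2 lists of 1399M4 held 77332 and 74433 peaks, against 33519 to 84199 (median 71490.5) in the other 12. The lowest list was replicate 2 of 1398P2, and without it the number of 1399M4-only regions was 7117. The lowest local background that the peak caller used in a library, which moves with depth, was 0.999 and 0.637 fragments per bp in 1399M4 and 0.507 to 1.13 in the other libraries. Peaks lay within 1 kb of an annotated end of the neuroendocrine genes Insm1, Chga, Chgb, Syp, Calca, Uchl1 and Ncam1 in both libraries of 1399M4 and in all 12 others. Markers of other cell types were mixed. No library had a peak within 1 kb of either end of Alb (albumin) or Afp of hepatocytes, Ptprc (the leukocyte antigen CD45), Pecam1 of endothelium or Pdgfra of fibroblasts. All 14 had one at Apoa1 of hepatocytes, Kdr of endothelium and Col1a1 of fibroblasts, and Itgam of myeloid cells had one in both libraries of 1399M4 and in 3 others. Ttr and Cdh5 had one in 5 other libraries, Col1a2 in 4 and Cd3e in 3, and none of these 4 had one in 1399M4. Of the lung epithelium markers, Sftpc and Foxj1 had one in all 14, and Scgb1a1 in both libraries of 1399M4 and 11 others. Of the tuft-like markers, Trpm5 had one in both libraries of 1399M4 and 9 others. Pou2f3 had one in 1 library of 1399M4 and 4 others, and Avil in 1 and 2 others. Peaks were also present at the ends of Trp53, Rb1, Rbl2 and Nfib in all 14 libraries, which does not test the deleted parts of these genes.

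Few of the regions lay on a promoter, and those that did are shown by their sequence because they are the places where a region can be tied to 1 gene. The search was limited to genes with a 1399M4-only region within 1 kb of an annotated end of the gene. Of these, 10 had a region that covered the whole 250 bases before a start site in the RefSeq promoter table (GRCm38.p6). Genes with a region only at a start site further from their ends were not searched. The 4 whose regions were highest by fold enrichment are printed 5′ to 3′ on the strand of the gene. The windows are chr6:24597521-24597770 (plus strand, Lmod2), chr11:99438154-99438403 (minus strand, Krt20), chr16:36221312-36221561 (plus strand, Csta2) and chr7:105600117-105600366 (minus strand, Hpx). Capitals mark matches, on either strand, to words known for a factor family, out of 19 words searched. The words found were GGAATG for the TEAD family, AGATAA for the family of GATA factors, TATAAA for the TATA box, TGTGGTT for RUNX, CAGATG for an E-box of bHLH factors, TTGGCA for NFI and TTGCNNAA for CEBP. In Hpx the E-box overlaps the first NFI word.
Lmod2: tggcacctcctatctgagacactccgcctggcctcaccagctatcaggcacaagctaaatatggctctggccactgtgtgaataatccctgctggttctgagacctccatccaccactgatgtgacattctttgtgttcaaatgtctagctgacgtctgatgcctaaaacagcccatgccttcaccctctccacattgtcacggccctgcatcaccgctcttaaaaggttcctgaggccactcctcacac
Krt20: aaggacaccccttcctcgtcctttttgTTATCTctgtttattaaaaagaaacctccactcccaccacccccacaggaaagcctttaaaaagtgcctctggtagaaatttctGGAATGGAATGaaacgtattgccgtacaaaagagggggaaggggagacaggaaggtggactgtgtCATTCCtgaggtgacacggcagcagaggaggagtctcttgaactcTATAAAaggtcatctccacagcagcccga
Csta2: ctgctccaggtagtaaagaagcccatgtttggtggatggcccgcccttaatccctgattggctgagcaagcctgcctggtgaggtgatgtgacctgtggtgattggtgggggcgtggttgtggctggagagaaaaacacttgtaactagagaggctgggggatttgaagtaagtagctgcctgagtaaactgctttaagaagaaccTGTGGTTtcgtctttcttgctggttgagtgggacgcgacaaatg
Hpx: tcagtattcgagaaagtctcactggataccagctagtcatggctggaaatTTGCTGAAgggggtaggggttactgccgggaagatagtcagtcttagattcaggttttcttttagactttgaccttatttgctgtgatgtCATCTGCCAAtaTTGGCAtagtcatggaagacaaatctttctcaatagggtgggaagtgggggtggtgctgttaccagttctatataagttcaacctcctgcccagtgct

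No searched word was present in the Lmod2 window. The Krt20 window held 5 matches, 3 of them to the TEAD word, which 11.6% of the 21044 windows of protein-coding genes contain, 1 to the GATA word (8.84% of windows) and 1 to the TATA box (11.7%). The Csta2 window held 1 match, to the RUNX word (3.84%). The Hpx window held 4, of which 2 were to the NFI word (11.5%), 1 to the E-box CAGATG (12.3%) and 1 to the CEBP word (9.18%). The TATA word was added after the sequences had been seen. The 10 windows held a median of 4 CpG dinucleotides, against 10 over all windows, and their median GC content was 52.0% against 55.6%. These matches describe the letters only; binding was not measured.

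At Lmod2, which encodes leiomodin, an actin-nucleating protein of striated muscle, the region ran over chr6:24597210-24598084 and had a fold enrichment of 12.8 in replicate 1 and 13.2 in replicate 2. Fold enrichment is the authors' height of a peak over its local background. At Krt20, an epithelial keratin known from intestinal and urothelial cells, it was 10.9 and 11.3. The region at Csta2, a cystatin A family protease inhibitor, had 11.0 and 9.16, and that at Hpx, the heme-binding plasma protein hemopexin made by hepatocytes, 8.43 and 6.66. The other 6 genes found in this search were Myh7b, Tmem144, Cyp2b10, Sbpl, Ffar2 and Gsta3, with folds from 4.00 to 9.57. Both libraries gave each of these genes a peak, and none of the 12 other libraries had one there, as the rule requires.

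The 1399M4-only regions outnumbered those of each other line. The line 1373M1 had 3357 regions open in it alone, 1398M1 had 2050, 1399P1 had 1955, 12N1G had 818, N2N1G had 605 and 1398P2 had 219. Line 1399M4 also had the most regions closed in it alone, 771 against 9 to 496 in the other lines. When only the 33519 best peaks of each library by q were used, 3531 regions were open in 1399M4 alone, against 330 to 2222 in the other lines. These 3531 touched 1180 of the 7100 regions, since a smaller list loses the lower peaks of 1399M4 and also lets regions in where another line had a lower peak.

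**Figure D1:**
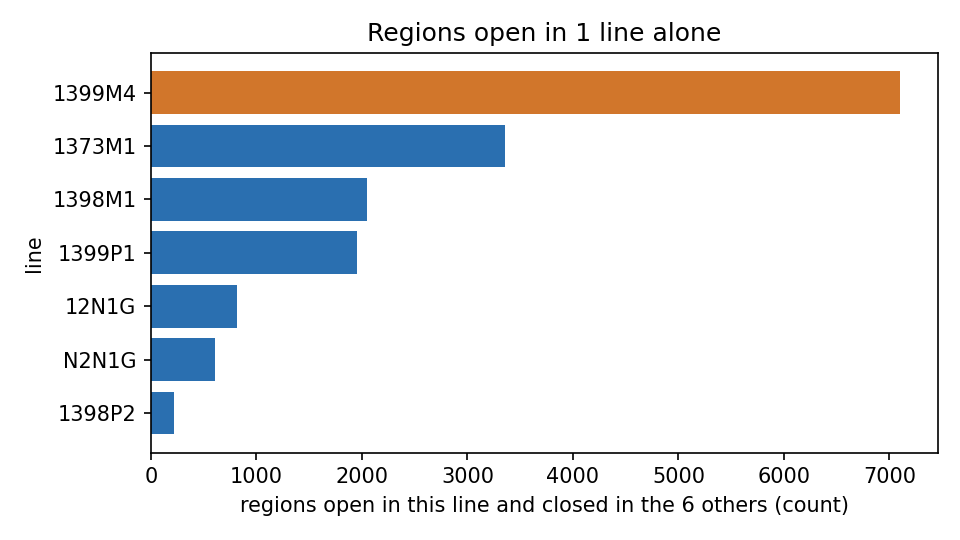
Number of regions (horizontal axis, count from 0) that are open in 1 line and closed in the 6 others, for each of the 7 lines (vertical axis). The bar of 1399M4, in orange, reaches 7100 and that of 1373M1 reaches 3357; each line has 2 libraries and there are no error bars, because a region needs both.

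The peaks in the 1399M4-only regions were lower than most peaks of the line. Their median fold enrichment was 6.50 in replicate 1 and 6.11 in replicate 2, against 9.25 and 8.55 in the 53210 other regions open in 1399M4. As a rank percentile among all peaks of the library (100 is the highest), the medians were 39.8 and 38.6, against 63.5 and 62.0 in the other open regions and 82.0 and 81.4 in the 17795 regions open in all 7 lines. The median −log10 q was 10.1 and 7.72, and the peaks were 316 and 270 bp wide at the median, against 510 and 400 bp in the other open regions. Counted in each library by itself, 686 (9.66%) in replicate 1 and 685 (9.65%) in replicate 2 ranked at or above the 75th percentile. These need not be the same regions. Across the regions, the ranks in the 2 libraries had a Pearson r of 0.737, against 0.853 in the other open regions; regions are not independent replicates, and a threshold on both libraries narrows the range.

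**Figure D2:**
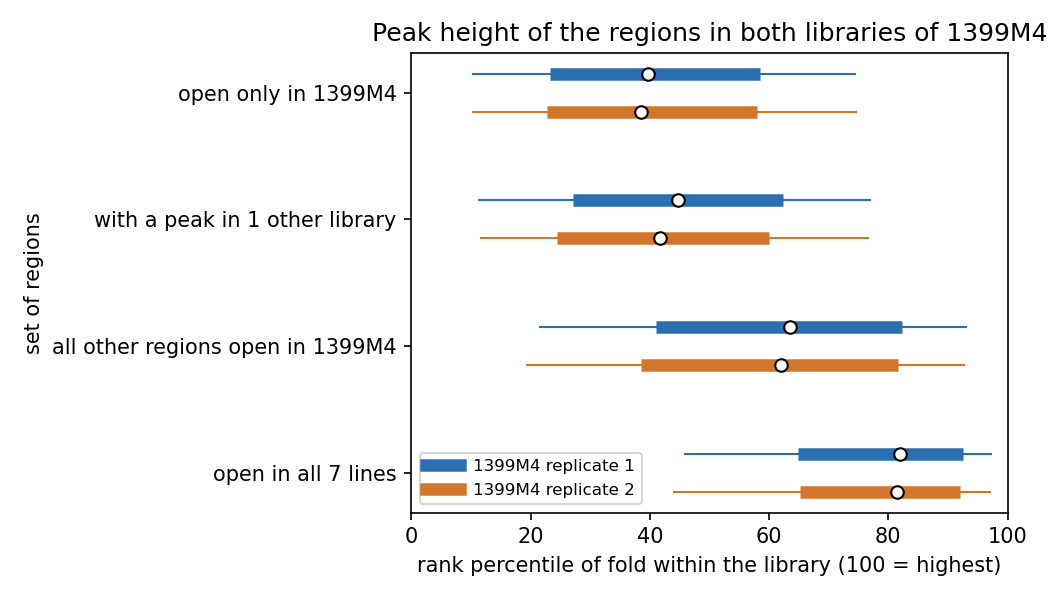
Rank percentile of fold enrichment within the library (horizontal axis, 100 is the highest peak) for 4 sets of regions (vertical axis) in replicate 1 (blue) and replicate 2 (orange) of 1399M4. White points are medians, thick bars run from the 25th to the 75th percentile and thin lines from the 10th to the 90th; the medians of the 1399M4-only regions, 39.8 and 38.6, lie below those of the other open regions in both libraries.

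Regions just outside the rule were similar in height. A further 2800 regions were open in 1399M4 and had a peak in exactly 1 library of the other lines, with median ranks of 44.8 and 41.6. That library belonged to 1399P1 in 1061 of them (37.9%) and to 1398P2 in 836 (29.9%). It belonged to 1398M1 in 338, to 1373M1 in 286, to 12N1G in 141 and to N2N1G in 138. The 2 lung tumor lines thus held most of the near misses. Of those of 1398P2, 820 came from replicate 1, with a list of 78843 peaks, and 16 from replicate 2, whose 33519 peaks were the fewest of all 14 lists. The 2 lists of 1399P1 were the longest, with 84199 and 79168 peaks, and gave 669 and 392. Another 11189 regions had a peak in 1 library of 1399M4 and in no other library of the series.

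The 1399M4-only regions lay mostly away from promoters. Of the 6826 on chromosomes with start sites in the RefSeq table, 74 (1.08%) were within 1 kb of a start site of a protein-coding gene, against 20.4% of the other regions open in 1399M4 and 49.3% of those open in all 7 lines. The median distance to a start site was 49422 bp, against 26964 bp in the other open regions and 1753 bp in the regions open in all lines. Of all 7100, 3964 (55.8%) lay inside a protein-coding gene, against 63.5% of the other open regions, and 1005 (14.2%) had no protein-coding gene within 100 kb, against 7.96%. The regions open in 1 other line alone were also distal, with 1.38% to 2.24% within 1 kb of a start site and median distances from 31138 to 90180 bp. The tables used here give gene extents and start sites but no exons, so exonic and intronic regions are not separated.

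**Figure D3:**
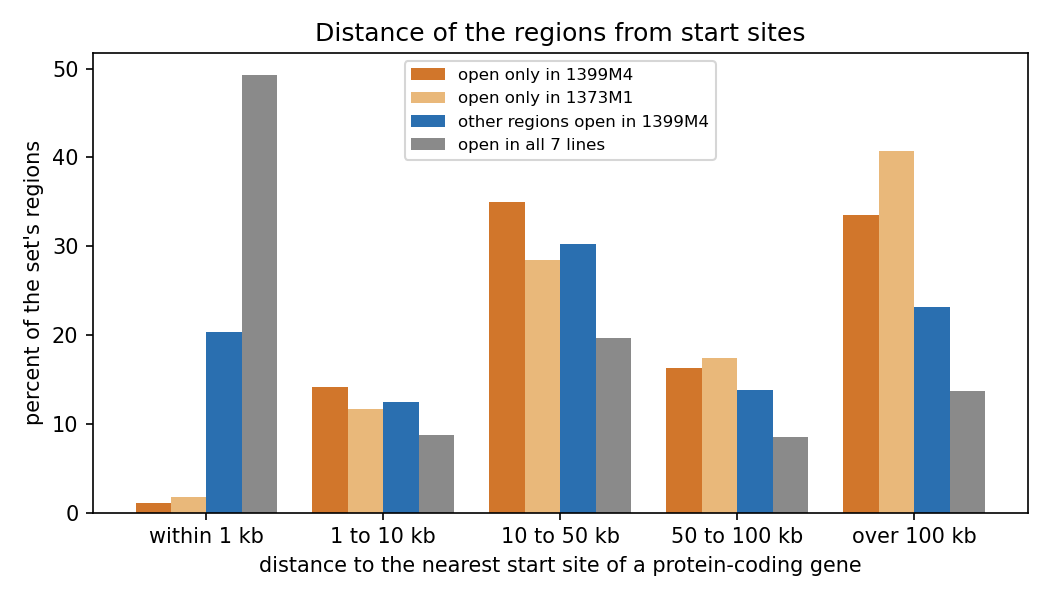
Percent of the regions of each set (vertical axis, from 0) by distance to the nearest start site of a protein-coding gene (horizontal axis, 5 classes). Of the 1399M4-only regions, in orange, 1.08% lie within 1 kb and 33.5% over 100 kb away, whereas 49.3% of the regions open in all 7 lines, in gray, lie within 1 kb.

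The distal position was not limited to the lower peaks. Of the 614 regions with a mean rank of at least 75, 583 could be placed and 4 (0.686%) were within 1 kb of a start site, against 37.8% of the other open regions of that rank. Their median distance to a start site was 60817 bp. The highest region of all, chr17:16157755-16158371, had folds of 19.7 in both replicates and lay 326509 bp from its nearest gene, Rgmb, which encodes a BMP co-receptor. The next, chr1:170521567-170522012, had folds of 20.7 and 18.6 and lay inside Nos1ap, an adaptor protein of neuronal nitric oxide synthase. The third, chr19:21150948-21151260, had 18.5 and 22.3 and lay 113822 bp from Tmc1, a channel subunit of sensory hair cells. The remaining 5 of the 8 highest were nearest to Chordc1, Olfr477, Dlg1, Spats2l and Plxdc2, with folds from 17.0 to 20.1. One of them, chr7:107989153-107989485, lay 882 bp from the odorant receptor gene Olfr477, and one was inside Dlg1, a scaffold protein of cell junctions.

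In all, 74 regions were within 1 kb of a start site, and they touched 75 of the 17273 protein-coding genes in the start-site table (0.434%). Within 1 kb of either end of a gene lay 267 regions (3.76%). The 8 genes with the highest of these were Olfr477 (17.2 and 20.1 fold), Plec (14.99 and 16.3), Nfyb (13.2 and 14.8), Mphosph8, Prss51, Ppm1f, Lmod2 and Sft2d2. Plec encodes plectin, a linker of intermediate filaments, and Nfyb a subunit of the CCAAT-binding factor NF-Y. Only Olfr477 and Lmod2 of these 8 have the region within 1 kb of a start site in the table. Among the other genes with a region near the start were Serpinb7, a serpin of skin, with folds of 8.002 and 9.16, and Wnt10b, a Wnt ligand, with 6.35 and 5.37. Cnfn, which encodes the cornified envelope protein cornifelin, had 5.59 and 7.80, and Casp14, the caspase of keratinocyte differentiation, had 4.00 and 6.11. These 4 genes were picked out after their values had been seen, and no gene list tests them as a group. The 75 genes also held Lmod2 of striated muscle, Hpx of hepatocytes and the odorant receptor gene Olfr477, so no single tissue is common to them.

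Counting each protein-coding gene with 10 kb on either side, 3923 of 21627 genes (18.1%) had a 1399M4-only region. Most had 1 (2944 genes), 640 had 2, 272 had 3 or 4, and 67 had 5 or more; 2423 of the regions were at no such gene. The chance of holding one grew with length: 9.43% of genes up to 10 kb had one, 19.6% of genes of 10 to 100 kb and 51.1% of longer genes, among genes with any region. Counts are therefore given as a share of all regions at a gene. Over all genes, 5553 of 140239 pairs of a gene and a region (3.96%) were 1399M4-only regions.

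The genes with the most regions were long genes, several of which serve neurons. Camta1, a calmodulin-binding transcription activator, had 15 of its 141 regions in this set (10.6%). Rbfox1, a neuronal splicing regulator, had 14 of 138 (10.1%). Macf1, which links microtubules to actin, had 12 of 80 (15%), and Lrba, a vesicle-trafficking protein, had 9 of 41 (22.0%). Rere, a nuclear receptor corepressor, had 9 of 62 (14.5%), Celf2, a splicing factor, 9 of 79 (11.4%), and Negr1, a neuronal adhesion protein, 8 of 46 (17.4%). A group of 3 overlapping gene models of the protocadherin locus on chromosome 18, Gm38667, Gm38666 and Gm37013, shared the same 9 regions. All of these shares lay above the 3.96% over all genes; the genes were picked by their count.

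With the 1399M4-only regions left out, these genes did not all hold more peaks in 1399M4 than in the other libraries. By the rule this takes peaks from 1399M4 alone, so its counts are lowered by construction. Counting all peaks raises 1399M4 by the same rule. Both its libraries then passed every other at Camta1 (79 and 73), Rere (45 and 40), Lrba (18 and 17) and Negr1 (18 and 20). They did not both do so at Rbfox1 (51 and 52), Celf2 (40 and 36), Macf1 (48 and 52) or the protocadherin models (46 or 47, and 34). Without the 1399M4-only regions, the line had 37 and 38 peaks at Rbfox1, against 6 to 51 (median 44.5) in the 12 other libraries. At Lrba it had 9 and 8, against 6 to 16 (median 14), and at Celf2 31 and 27, against 6 to 40 (median 28). The values of 1399M4 lay inside the range of the other libraries at these 3 genes. At Negr1 it had 10 and 12, against 1 to 17 (median 7), and at Macf1 36 and 40, against 4 to 55 (median 17.5), again within the range. At the protocadherin models the line had 37 or 38 in replicate 1 and 25 in replicate 2. The other libraries had 6 to 37 at Gm38667 and Gm38666 and 6 to 39 at Gm37013. At Camta1 line 1399M4 had 64 and 58, against 22 to 66 (median 41.5). At Rere it had 36 and 31, against 14 to 32 (median 18), so that replicate 1 stood above all 12 other libraries at Rere. The counts at single genes depend on how many peaks are kept: with equal numbers of peaks per library, Camta1 held 11 such regions and Rere 6, while Rbfox1 held 4, Macf1, Lrba, Celf2 and Negr1 held 2 each and the 3 protocadherin models held 0.

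The best region of Negr1, chr3:156792509-156793029, had folds of 17.2 and 14.2 and a mean rank of 93.2. In Lrba the best, chr3:86724685-86725519, had 13.4 and 10.5, and in Rbfox1, chr16:7146492-7146840 had 10.5 and 13.2. In Macf1 the highest rank was 12.9 and the median rank 2.63, so by fold the 12 regions there were among the lowest of the line. Fold is taken over local background, which in that window was 6.08 and 4.68 times the floor of the library. A low fold there need not mean few fragments. Median ranks at the other genes ran from 22.2 at the protocadherin models to 53.6 at Negr1.

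Chromosome 4 held the most crowded windows. Between 123 and 124 Mb, 38 of the 135 regions open in 1399M4 (28.1%) were open in it alone, 11 of them inside Macf1 and 3 inside Akirin1; over all windows with a region the median was 2 per Mb. The neighboring window from 122 to 123 Mb had 23. Mycl (chr4:122995588-123002490) crosses the border between these windows, and the lower window is called the Mycl window here. Mycl encodes the MYC family member L-MYC, whose locus is known to be amplified in SCLC. The local background in the Mycl window, relative to the floor of the library, was 14.1 and 21.1 in 1399M4, and 6.08 and 4.68 in the window with Macf1. In the Mycl window the other lines' means were 16.6 in 12N1G, 11.3 in 1398M1, 11.2 in N2N1G, 10.1 in 1373M1, 1.94 in 1398P2 and 1.68 in 1399P1. In the Macf1 window 1373M1 reached 30.8 and the others 1.36 to 2.94. In the Macf1 window the background was thus highest in 1373M1 and 1399M4, and its part in the calls there was not tested. From 124 to 129 Mb it was 1.00 to 1.04 in both libraries of 1399M4, at the floor or close to it, against line means of 1.13 to 2.63.

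**Figure D4:**
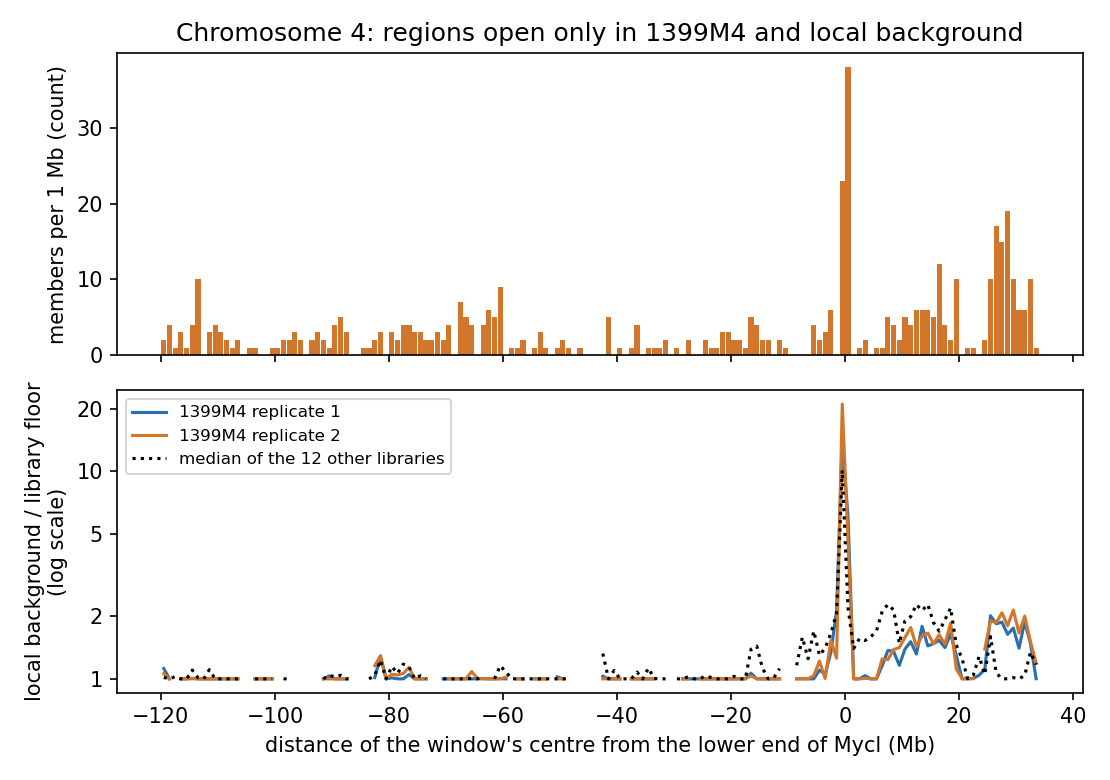
Chromosome 4 in windows of 1 Mb, placed by distance of the window's centre from the lower end of Mycl (horizontal axis, Mb). The upper panel counts the 1399M4-only regions per window and the lower panel gives the local background relative to the floor of the library (log scale) in both libraries of 1399M4 and as the median of the 12 others; gaps mark windows with fewer than 10 summits. The windows that meet within Mycl hold 23 and 38 regions, and a second group follows about 25 to 33 Mb further on.

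A second stretch, from 148 to 156 Mb on chromosome 4, held 93 of the 1399M4-only regions among 610 open ones (15.2%), including all 15 of Camta1 and the 9 of Rere. The background of 1399M4 there was 1.40 to 2.01 times its floor in replicate 1 and 1.52 to 2.15 in replicate 2. The line 1398P2 was raised along the same stretch, with means of 1.38 to 2.30 over the 8 windows. In the window from 149 to 150 Mb its mean was 1.84, where 1399M4 had 1.84 and 1.86, so the raised background there was shared by both lines. In 1398M1 and 1399P1 the first window had means of 3.87 and 1.90 and the other 7 had 1.00 to 1.35, and in 12N1G, 1373M1 and N2N1G no library passed 1.48. Of the 5 windows with the most regions, 2 were in this stretch, with 19 and 17, and the remaining one, on chromosome 5 from 114 to 115 Mb, had 18. Camta1, Rere and Macf1 had none when the windows of raised background (at least 1.5 times the floor in both libraries) were left out, because these windows hold them. Over the genome the 61 such windows held 444 of the 7100 (6.25%), against 7.57% of the other open regions, so most 1399M4-only regions lay elsewhere. By chromosome, the share of open regions that were open in 1399M4 alone ran from 9.01% on chromosome 7 to 14.8% on chromosome 19.

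Some of the regions stood close together. In 1399M4, 1360 (19.2%) had another such region within 20 kb, against 16.7% in the 1399P1-only set and 13.4% in the 1373M1-only set. These sets held 7100, 1955 and 3357 regions. A larger set has more near neighbors by its size alone, and no allowance was made for this, so the shares do not rank the sets by crowding. It was 8.24% in the 1398M1-only set, which is larger than the 1399P1-only set, and 1.83% to 2.57% in the sets of 1398P2, N2N1G and 12N1G.

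Transcription factor genes did not hold more of the regions than genes in general. Of 717 matched by family, 136 (18.97%) had one, against 18.1% of all genes, and 208 of their 6480 regions (3.21%) were in the set, against 3.96%. Rfx3, a regulator of ciliary genes, had 7 of its 27 regions (25.9%), but their median rank was 13.1, and it had 0 when all libraries were held to the same number of peaks. Glis3, a Krüppel-like zinc finger factor of pancreas and kidney, had 6 of 39, with 25 and 22 peaks in the 2 libraries of 1399M4. Leaving the 6 out, which lowers the count of 1399M4 alone, it had 19 and 16 peaks. The other libraries had 3 to 19 (median 11.5), so it was near the top of their range. Sox5, a neural and cartilage factor, had 6 of 105, the best at chr6:144080173-144080422 with folds of 14.5 and 10.6. Klf12, a repressor of the Krüppel-like family, had 5 of 42 with a median rank of 68.2, the highest of the 10 factor genes with the most regions, and it had 5 with lists of equal length as well, where Glis3 had 3 and Sox5 had 2. Nfatc2, Zbtb7c and Tshz2 had 4 each and Ets2, Ppard and Foxp2 had 3 each. With lists of equal length Nfatc2 had 3, Zbtb7c and Foxp2 had 2, Tshz2 and Ppard had 1 and Ets2 had 0. With −log10 q of at least 5 Ets2 again had 0, Foxp2 had 1 and Rfx3 had 2. Those of Nfatc2 and Ppard lay in windows of raised background, where 1399M4 was at 1.69 and 1.72 times its floor and at 1.51 and 1.52, within the range of the other libraries.

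By family, 9 of 25 Ets genes had a 1399M4-only region (36.0%, against 18.1% of all genes). In the set were 13 of their 255 regions (5.10%). The Rfx family, with 8 of 86 (9.30%), owed 7 to Rfx3. Fox genes had 16 of 395 (4.05%), Sox genes 11 of 245 (4.49%), nuclear receptors 19 of 635 (2.99%) and bHLH genes 23 of 777 (2.96%). The 39 Hox genes had 0 of 205 regions and the 14 NKX genes 0 of 65. These shares lay on both sides of the 3.96% over all genes.

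The lineage lists gave no single direction either. Over all protein-coding genes, 18.1% had a 1399M4-only region and 3.96% of the pairs of a gene and a region were in the set. Neuroendocrine factors had a 1399M4-only region at 4 of 24 genes and in 5 of 132 regions (3.79%). Insm1 and Insm2, zinc finger factors of neuroendocrine differentiation, had 1 each and Prox1 had 2, with median ranks of 15.9, 41.7 and 6.67. Neurod1 had none. Neuroendocrine marker genes had 9 of 268 (3.36%) at 7 of 26 genes; Ncam1, the neural adhesion molecule, had 3, the best of them at chr9:49640193-49640578 with folds of 12.6 and 13.3. The other peaks at Ncam1 numbered 17 and 14 in 1399M4, against 3 to 17 (median 7.5) in the other libraries. Both values were above the median and within the range, although leaving the 3 out lowers the count of 1399M4 alone. Proneural and Myt factors had 7 of 141 (4.96%) at 5 of 14 genes, among them St18 and Myt1l with 2 each and Neurog1, a proneural bHLH factor, with 1.

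Among the lists for variant SCLC states, tuft-like genes had 7 of 168 regions (4.17%, against 3.96% over all genes). These were at 5 of 22 genes (22.7%, against 18.1%). Avil, the actin-bundling protein advillin, had 3 of its 8, the best at chr10:127016598-127016856 with folds of 12.2 and 9.22. Pou2f3, the factor that defines the tuft-like state, had 0 of 15. The YAP, TEAD and AP-1 list had 3 of 182 (1.65%), at Axl, Amotl2 and Tead1, and Notch and Hes genes had 6 of 267 (2.25%), 3 of them at the Notch coactivator Maml2. Mesenchymal genes had 8 of 203 (3.94%), with 2 each at Spp1 (osteopontin) and Cdh2 (N-cadherin). Epithelial genes had 9 of 180 (5.00%) at 8 of 25 genes (32.0%, against 18.1%). The splicing factor Esrp1 had 2 and 7 more had 1 each, Klf5 and Cdh1 (E-cadherin) among them.

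The lung epithelium list had the largest share, 8 of 116 regions (6.90%, against 3.96% over all genes) at 6 of 22 genes (27.3%, against 18.1%). Etv5, a factor of alveolar type 2 cells, and Trp63, the basal cell factor p63, had 2 each, and Sftpa1, Foxj1, Foxa2 and Lpcat1 had 1 each. At Trp63 the line had 4 further peaks in each library, against 0 to 4 (median 1) elsewhere. These were as many as the highest other library had, although leaving the 2 out lowers the count of 1399M4 alone. At Sftpa1, surfactant protein A, 1399M4 had no other peak. The share rests on 8 regions and was 1.74 times that over all genes. In the sets open in 1 other line alone, this ratio ran from 0 to 2.73 (median 0), so at least 1 such set had a higher one.

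Of the lists for the site of the metastasis and for other cells it could hold, the hepatocyte list had a share slightly above that of all genes and the others had lower shares. Hepatocyte genes had 5 of 108 (4.63%, against 3.96% over all genes) at 5 of 24 genes (20.8%, against 18.1%), with 1 each at Alb, Cyp7a1, Nr1h4 and Nr1i2 among them. At Alb the only region of the gene and its flanks was in the set, chr5:90467345-90467599, with folds of 8.50 and 9.08. It lay inside the gene, and its start had no peak in any library. Cyp7a1, the rate-limiting enzyme of bile acid synthesis, had chr4:6270642-6271236 with 11.9 and 8.01. Lymphoid and myeloid genes had 4 of 181 (2.21%), with 1 each at Ptprc, Cd79a, Ikzf3 and Runx1. The region in Ptprc, chr1:138154243-138154869, was among the highest, with folds of 16.7 and 18.3, although 1399M4 had no other peak at that gene. Endothelial genes had 2 of 179 (1.12%), neural crest and glial genes 2 of 103 (1.94%), gut endoderm factors 1 of 124 (0.806%) and fibroblast and smooth muscle genes 0 of 121.

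**Figure D5:**
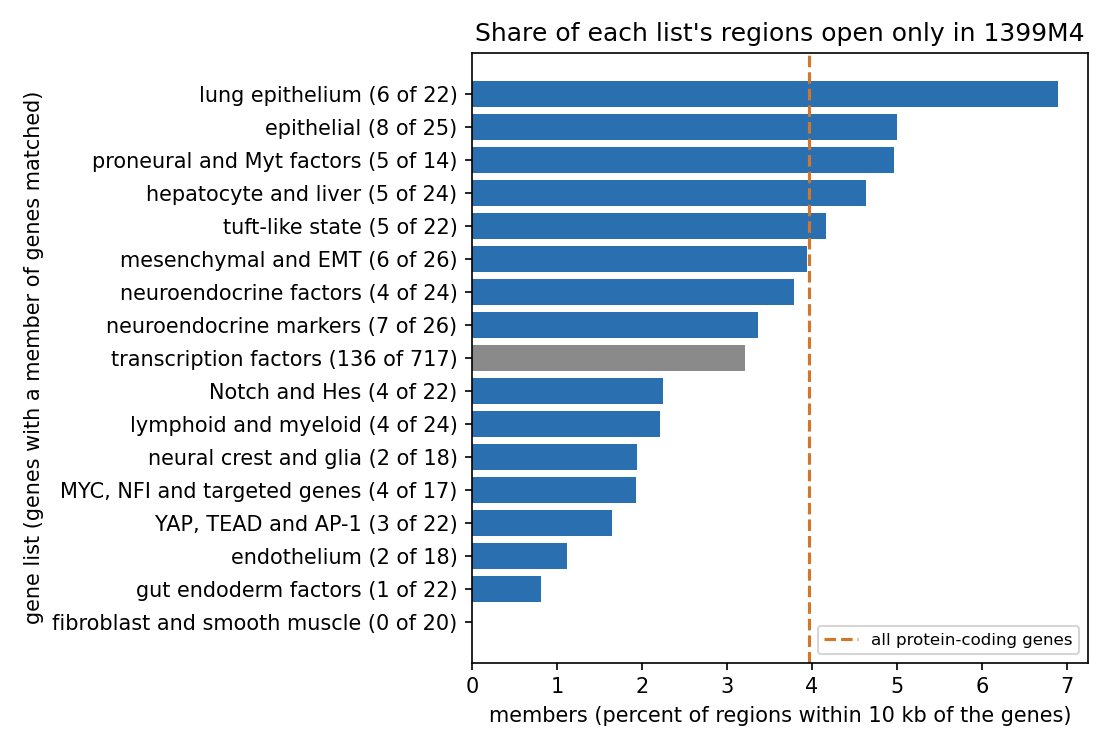
Share of the regions at each gene list, with 10 kb around each gene, that are 1399M4-only regions (horizontal axis, percent, from 0), with the number of genes that have one in brackets; the gray bar is all transcription factor genes and the dashed line is all protein-coding genes at 3.96%. Shares run from 0 for the fibroblast list to 6.90% for the lung epithelium list, on both sides of the line.

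The list counts depend on the number of peaks kept. With lists of equal length, 4 of the 22 lung epithelium genes, 4 of the 25 epithelial, 3 of the 24 hepatocyte, 1 of the 22 tuft-like and 1 of the 14 proneural and Myt genes had a region in the set. Over all protein-coding genes it was 2352 of 21627. With −log10 q of at least 5 in all libraries, 9 of the 24 hepatocyte genes had one, against 3465 of all 21627. That threshold also drops lower peaks of the other lines, so regions outside the 7100 enter this count.

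The genes that the mouse models target and the MYC and NFI families had 5 of 259 regions (1.93%, against 3.96% over all genes). Rb1 had 2 of 15, Rbl2 1 of 6, the acetyltransferase gene Crebbp 1 of 11 and Nfix 1 of 25. Nfib itself had 0 of 37. The line had 11 peaks at Nfib in each library, against 4 to 23 (median 16) in the other 12. Both values lay below that median and inside the range. Mycl had 0 of 5, with 4 peaks in each library of 1399M4 and 1 to 5 in the others.

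Of the 1005 miRNA hairpins in the RefSeq table, 12 had a 1399M4-only region within 2 kb, and Mir468 and Mir7232 shared the same one. The share of other genes with a region at this distance was not computed, so whether 12 is many or few is not known. The highest was near Mir1936, with folds of 9.09 and 6.69, followed by Mir674 with 8.50 and 6.11. The region 1960 bp from Mir200c, a miRNA of epithelial cells, had 3.90 and 3.30 and a mean rank of 6.96, among the lowest of the line.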

How the data were processed

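ATAC-seq libraries were made with the OMNI-ATAC protocol from 7 mouse SCLC lines, 2 per line, per the labels' protocols. The submitters' processing notes name cutadapt 2.10, Bowtie2, Picard, SAMtools and MACS2 and the builds mm10 and GRCm38; their settings are not stated there, and the file names record removal of duplicates. The names of 10 lists, both of 1399M4 among them, carry a human build, but in every list the last peak ends at 195.37 Mb on chromosome 1 and 170.88 Mb on X, so mouse coordinates were read. The authors deposited 1 peak list per library, with fold enrichment as a ratio over local background, p-value and q-value as −log10, and an integer score that was not used. The lowest −log10 q in any list was 1.3. Intervals with several summits were counted once, with the highest fold.

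Regions were merged and counted in Python 3.11.15 (pandas 2.3.3, numpy 2.4.6). Genes, start sites and promoter sequences came from RefSeq (GRCm38.p6). Local background was solved for each summit with −log10 p under 250 from its fold and p under a Poisson model (scipy 1.17.1); a window's value is the 10th percentile of at least 10 summits, divided by the lowest in the library. Solved pileups were whole numbers within 0.02 at 100% of summits. The region counting and the solver were tested on simulated data.

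Named genes were the 10 protein-coding and 10 transcription factor genes with the most regions, the 8 highest regions, the 8 highest at gene ends, up to 4 genes per list and the 5 fullest windows; others are said to be picked afterwards or are markers. The regions, lists and tests were chosen with earlier results of these data known, so nothing was tested. Alternatives covered the q threshold, list size, merging, each library left out, lines 1398P2 and 1399P1 left out, windows of raised background and gene flanks. Read depth is not given in the files, so no interval for depth is given. Results for a few genes are not reported here.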

Additional observations from a re-analysis of the deposited data

How the results depend on the processing

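No paired analysis was possible because the results come from no test. The number of 1399M4-only regions was within 1.5 times of 7100 in 19 of 22 alternatives. It was 3531 with equal numbers of peaks per library, and leaving out 1 library at a time gave 7117 to 12992, the counts of 12606 and 12992 coming from the lists of 1399M4 itself, where 1 library then decides. The share within 1 kb of a gene end was 4.24% with −log10 q of at least 5, 5.13% with equal numbers of peaks, 8.68% within 2.5 kb and 3.62% to 4.00% with 1 library left out. Protein-coding genes with a region numbered 2352 with equal numbers of peaks, 7770 with 50 kb around genes and 3929 to 6188 with 1 library left out. Transcription factor genes with one numbered 90 with equal numbers of peaks, 89 for genes alone, 273 with 50 kb and 136 to 225 with 1 library left out. The cause was not tested except that wider windows and fewer lists hold more regions by construction. List counts moved by over 1.5 times in 54 of 384 cases and counts at named genes in 41 of 460. Leaving out the 2 stretches of chromosome 4, an alternative chosen after seeing the data, gave 6946 regions. The planned motif search in the regions was not run, since no genome was used here.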

Other observations

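The converse set was 771 regions with a peak in every library of the other 6 lines and in neither of 1399M4. Of the 751 on chromosomes with start sites in the table, 55 (7.32%) were within 1 kb of a start site. This was above the 1.08% of the 1399M4-only regions and below the 49.3% of the regions open in all 7 lines. They touched 534 protein-coding genes (2.47%). These regions were chosen by the same peak calls, and the values are a description. The genes with the most were Esrrb, an orphan nuclear receptor, with 3 of 24 regions, Runx1, a factor of blood cell development, with 3 of 27, and Nrxn3, a synaptic adhesion protein, with 3 of 117. Among other transcription factor genes, Nfia, an NFI family member, had 2 of 107 and Zfhx3 had 2 of 63. Over all genes 0.402% of gene and region pairs were in this set.

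Of the gene lists, lymphoid and myeloid genes had the largest share, 3 of 181 (1.66%), all at Runx1. Neuroendocrine markers had 4 such regions among 268 (1.49%), 1 each at Snap25, Pcsk2, Calca and Pcsk1n, which serve vesicle fusion, peptide processing and peptide hormone production. The list of MYC, NFI and targeted genes had 3 of 259 (1.16%), at Nfia and Crebbp, and Notch and Hes genes had 3 of 267 (1.12%), at Hes6, Dll1 and Notch2. In 7 further lists 1 region each was in the set, with shares from 0.549% to 0.926%. The tuft-like, proneural, mesenchymal, lung epithelium and neural crest lists had 0.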
